A study of Mus musculus with 78 samples.

Results

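The genes described here are 10 cytoskeletal genes of mouse brain, the microtubule-associated proteins Map1a, Map1b, Map2, Map4, Map6 and Mapt (tau) and the stathmins Stmn1, Stmn2, Stmn3 and Stmn4. They were chosen by name and are 10 of 18193 genes that the arrays assign to a single symbol. The arrays held 27 probe sets for them, of which 25 reached the filter on low values, and the probe set of highest mean signal across the 78 arrays stood for each gene. All 10 genes passed the filter in every comparison. In the GRCm38.p6 annotation the genes lie on 9 chromosomes, with Map1a (chr2:121289590-121310832) and Stmn3 (chr2:181306459-181314500) sharing one. Map1b lies at chr13:99421464-99516602, Map2 at chr1:66175202-66442583, Map4 at chr9:109929841-110083954, Map6 at chr7:99266779-99337137 and Mapt at chr11:104229409-104332090. Stmn1 lies at chr4:134468320-134473843, Stmn2 at chr3:8509527-8561604 and Stmn4 at chr14:66344210-66361680.

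The study profiled brain RNA on 78 one-colour Affymetrix arrays, with 26 groups of 3 mice carrying alleles of the neuronal migration genes Lis1 (Pafah1b1), Ndel1, Dcx and 14-3-3 epsilon (Ywhae), or wild type. At embryonic day E14 the groups were Lis1 ko/+, Lis1 ko/cko, Ndel1 ko/+, Ndel1 ko/cko, Dcx ko/Y, 14-3-3 epsilon ko/ko and the mixed A and mixed B wild types. At birth (P0) they were Lis1 ko/+, Lis1 ko/cko, Ndel1 ko/+, Ndel1 ko/cko, Dcx ko/Y, Ndel1 ko/+ and 14-3-3 epsilon ko/ko on the inbred 129S6 background, and the inbred, mixed A and mixed B wild types. At P14 they were Lis1 ko/+, Lis1 ko/cko, Ndel1 ko/+, Ndel1 ko/cko, a further Ndel1 ko/+ group labelled mix, and the inbred, mixed A and mixed B wild types. The titles of the P0 Lis1 groups carry the word Mix, like those of the further P14 Ndel1 group. The titles of the 14-3-3 epsilon groups and of the inbred Ndel1 group do not contain ko/ko or ko/+. The labels write cko for the second Lis1 or Ndel1 allele and name no Cre driver. They do not say which mixed wild type belongs to which mutant. The replicates are called biological, and nothing states that they came from separate litters. A mutant was therefore counted as different only where it passed the test in the same direction against each mixed wild type; the inbred mutants were set against the inbred wild type.

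Microtubules are polar polymers of tubulin that carry transport in axons and dendrites and move the nucleus of a migrating neuron. Microtubule-associated proteins bind along the polymer and stabilise or space it, MAP2 in dendrites and tau mainly in axons, while MAP1B is the form of growing axons and MAP1A that of mature dendrites. Stathmins work the other way: they bind free tubulin dimers and promote disassembly, and phosphorylation switches them off.

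Map1a and Map1b encode related proteins whose signals moved in opposite directions with age below, so their promoters are shown side by side from RefSeq (GRCm38.p6, 250 bases before the start to 50 after it, on the gene's strand). Capitals mark the Sp1 box GGGCGG or its reverse complement CCGCCC and the TATA box TATAAA, searched on both strands.
Map1a, chr2:121289352-121289651, plus strand: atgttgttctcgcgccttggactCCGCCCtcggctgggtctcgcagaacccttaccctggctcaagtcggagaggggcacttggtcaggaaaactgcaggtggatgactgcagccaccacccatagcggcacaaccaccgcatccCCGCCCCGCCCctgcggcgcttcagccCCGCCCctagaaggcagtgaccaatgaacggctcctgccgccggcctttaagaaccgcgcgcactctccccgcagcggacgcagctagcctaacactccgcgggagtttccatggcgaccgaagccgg
Map1b, chr13:99516553-99516852, minus strand: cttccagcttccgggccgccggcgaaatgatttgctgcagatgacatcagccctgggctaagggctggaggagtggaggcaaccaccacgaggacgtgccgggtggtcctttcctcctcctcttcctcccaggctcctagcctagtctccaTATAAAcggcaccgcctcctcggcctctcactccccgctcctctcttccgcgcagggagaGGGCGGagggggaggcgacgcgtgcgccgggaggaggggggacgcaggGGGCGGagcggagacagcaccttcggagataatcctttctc
Both windows had a GC content of 65.7%. The Map1a window held 4 Sp1 boxes, of which those starting at -105 and -100 from the start overlap, and no TATAAA. The Map1b window held 2 Sp1 boxes and a TATAAA at -99. Among 32851 RefSeq promoters of this length, 35.7% held an Sp1 box and 13.6% held TATAAA. Also searched, and not marked, were CCAAT (in 37.4% of promoters), the E-box CANNTG (72.3%) and the cAMP response element TGACGTCA (1.79%): Map1a held 1 CCAAT and 2 E-boxes, Map1b held 1 E-box, and neither held TGACGTCA. A match to these letters is a description and not a site of binding.

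Values are log2 RMA signals. Differences were tested with limma over all genes that passed the filter, with Benjamini-Hochberg adjustment and a threshold of 0.05. Signals of different probe sets were not set against each other. The arrays of each age share nearly the same distribution of values and differ between ages, so age and array batch cannot be told apart; each difference between ages, its SE and its adjusted p are those of the signals as deposited, and the difference relative to the median gene is given beside it. The median gene moved by -0.19 for P0 against E14, by 0.13 for P14 against P0 in the mixed wild types and by 0.04 in the inbred ones. Where a test against the median gene gave another call, that is stated. A first principal component over all genes, holding 35.92% (P0) and 52.97% (P14) of the variance, parted the arrays into 2 sides. Ndel1 ko/+, Ndel1 ko/cko, mixed B and, at P0, Dcx ko/Y stood on one side, and mixed A, the inbred wild type and all other groups, the P14 group labelled mix Ndel1 ko/+ among them, on the other. No group was split. At E14, 6 arrays (Lis1 ko/+ replicate 1, Lis1 ko/cko 1 and 3, 14-3-3 epsilon ko/ko 2, mixed A 2 and 3) had low levels of midbrain, hindbrain and spinal cord markers, with mean marker levels of 4.037 to 4.209 against at least 4.795 in the other 18. They were also one side of the E14 first component (43.32% of the variance). Mean levels of neuronal markers (9.395 to 9.611, against 9.917 to 10.59) and astrocyte markers (6.335 to 6.666, against 6.727 to 7.126) were lower in the 6 arrays. Meningeal and fibroblast markers ran lower with some overlap (5.51 to 9.07, against 8.959 to 10.11), and progenitor markers higher (10.15 to 10.42, against 9.67 to 10.18). Of the targeted genes, Dcx averaged 4.576 at E14 and 4.301 at P0 in Dcx ko/Y, and Pafah1b1 at P14 averaged 10.36 in Lis1 ko/cko and 10.21 in Lis1 ko/+, against mixed A at 10.85 and mixed B at 10.48. Pafah1b1 at P0 lay between the mixed wild types (10.08 and 10.01, against 10.51 and 9.95). At E14 it averaged 9.844 in Lis1 ko/cko and 10.07 in Lis1 ko/+, against mixed A at 10.38 and mixed B at 10.43. Ywhae was at 12.676 and 12.924 in the E14 libraries labelled 14-3-3 epsilon 1 and 2 and at 9.9704 in the library labelled 3. In the inbred 14-3-3 epsilon group at P0 Ywhae averaged 9.833, against 12.75 in inbred wild type. Ndel1 averaged 9.82 in the E14 group labelled Ndel1 ko/cko and 9.45 in Ndel1 ko/+, against mixed A at 9.90 and mixed B at 9.91. At P0 it was higher in the group labelled ko/cko (9.5131 to 9.6273) than in the group labelled ko/+ (9.2688 to 9.4013), against the order of the labels. Both of these groups averaged below mixed A at 9.892 and mixed B at 9.742. At P14 Ndel1 averaged 10 in Ndel1 ko/cko and 10.01 in Ndel1 ko/+, against mixed A at 10.39 and mixed B at 10.32. Ndel1 was not lower in the inbred Ndel1 group at P0 (mean 10.06, against 9.911 in inbred wild type). Nor was it lower in the P14 group labelled mix Ndel1 ko/+ (10.55, against mixed A at 10.39 and mixed B at 10.32).

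The first comparison asked how the genes change as the wild-type brain develops. Between E14 and P0, Map1a, Mapt, Stmn2, Stmn3 and Stmn4 rose in both mixed wild types, and none of the 10 genes fell. Between P0 and P14, Map1a rose, 4.93-fold relative to the median gene, while Map1b, Map6, Mapt and Stmn1 fell. Thus 5 of 10 genes passed at each step, against 49.8% of all genes for P0 against E14 (14.8% higher and 35% lower) and 56.4% for P14 against P0 (34.3% higher and 22.1% lower). With both directions together, the list's share lay near that of all genes at both steps. By direction, 5 were higher and 0 lower at P0, and 1 was higher and 4 lower at P14. Tested against the median gene, the same 5 passed at P0 (46% of all genes), and Map4 and Stmn2 joined the 5 at P14 (55.7%). Without the shift, the median of the 10 genes was 0.35 for P0 against E14, beside -0.19 over all genes, and -0.20 for P14 against P0, beside 0.13. In bulk brain RNA, fewer cells of a type and less RNA per cell cannot be told apart. Cell type markers moved in the same comparisons: of 6 oligodendrocyte markers 1 was higher at P0 and 6 at P14, with a median rise of 4.07 at the second step, and of 9 neuronal markers 4 were higher and 1 lower at P0 and 6 higher and 2 lower at P14. All 7 progenitor markers that were measured fell at both steps. Their part in the changes below was not tested.

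**Figure D1:**
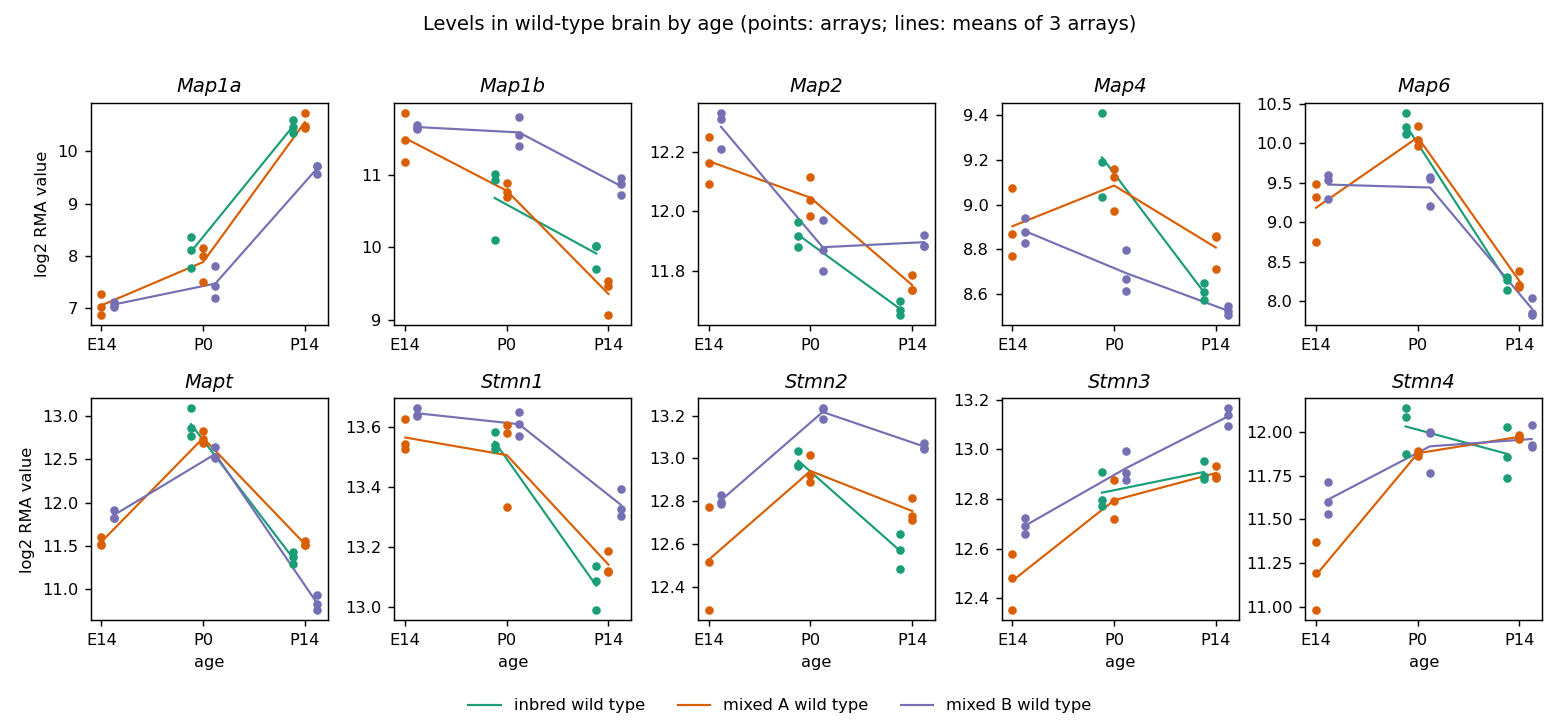
Log2 RMA signal (vertical axes, separate scales) of the 10 genes in each wild-type array (points) at E14, P0 and P14, coloured by wild type, with lines through the means of 3 arrays. Map1a had its highest values at P14 and Mapt at P0, and the mixed B line of Map1b stayed above the mixed A line at P0 and P14.

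Map1a, whose product is cleaved into a heavy and a light chain that bind microtubules of mature dendrites, had 7.02, 6.88 and 7.27 in mixed A at E14, 8.01, 7.50 and 8.15 at P0, and 10.73, 10.48 and 10.44 at P14. In mixed B it had 7.12, 7.03 and 7.07 at E14, 7.42, 7.80 and 7.19 at P0, and 9.72, 9.72 and 9.57 at P14. No array of one age overlapped another age in either wild type, and mixed B reached a lower P14 level than mixed A. The rise was 0.61 ± 0.164 (SE) to P0, with an adjusted p of 0.0462, and 2.43 ± 0.164 to P14, with an adjusted p of 6.6e-11. Relative to the median gene these were 0.80 and 2.30. The first step was lost when any of E14 mixed B 1, 2 or 3 or P0 mixed B 1 or 2 was left out (adjusted p 0.0681 to 0.29). Inbred mice, present at P14 and P0 alone, had 10.60, 10.45 and 10.35 at P14 and 7.76, 8.11 and 8.37 at P0, a difference of 2.39 (adjusted p 1.15e-11).

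Map1b, an early microtubule-associated protein of growing axons, had 11.86, 11.48 and 11.18 in mixed A at E14, 10.76, 10.88 and 10.69 at P0, and 9.07, 9.53 and 9.46 at P14. Mixed B arrays gave 11.69, 11.65 and 11.64 at E14, 11.40, 11.55 and 11.80 at P0, and 10.87, 10.95 and 10.72 at P14. In mixed B the E14 and P0 arrays overlapped. Map1b did not pass at P0, with -0.73 in mixed A and -0.07 in mixed B (adjusted p 0.878), and fell by 1.08 ± 0.182 at P14 (adjusted p 0.00128), or 1.21 relative to the median gene. The changes in mixed A and mixed B were not called different at either step (-0.65, adjusted p 0.0866, and -0.69, adjusted p 0.0632), although the second passed against the median gene (-0.78, adjusted p 0.038). Inbred arrays had 10.02, 9.70 and 10.02 at P14 and 10.93, 11.01 and 10.10 at P0, a difference of -0.77 (adjusted p 0.000676), with replicate 3 at P0 close to the P14 arrays.

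Map2, Mapt and Map4 encode relatives that share repeated microtubule-binding domains. Mapt, the tau gene, had 11.61, 11.53 and 11.51 in mixed A at E14, 12.73, 12.82 and 12.68 at P0, and 11.50, 11.51 and 11.55 at P14. Mixed B had 11.82, 11.92 and 11.82 at E14, 12.52, 12.64 and 12.52 at P0, and 10.83, 10.94 and 10.76 at P14. Every P0 array was above every E14 and P14 array of its wild type. The rise to P0 was 0.95 ± 0.0664 (adjusted p 7.46e-09) and the change to P14 was -1.47 ± 0.0664 (adjusted p 2.64e-13), or 1.14 and -1.60 relative to the median gene. The inbred arrays had 11.37, 11.29 and 11.43 at P14 and 12.77, 13.09 and 12.86 at P0, a difference of -1.54 (adjusted p 3.67e-15).

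Map2, the dendritic form, moved little on its highest probe set. It had 12.09, 12.25 and 12.16 in mixed A at E14, 11.98, 12.12 and 12.04 at P0, and 11.79, 11.74 and 11.74 at P14. Mixed B had 12.33, 12.21 and 12.31 at E14, 11.97, 11.80 and 11.87 at P0, and 11.92, 11.88 and 11.88 at P14. The mixed B arrays of P0 and P14 overlapped, and neither step passed. The change to P0 was -0.26 ± 0.0511 (adjusted p 0.0502), and the change to P14 had opposite signs, -0.29 in mixed A and 0.02 in mixed B (adjusted p 1). Relative to the median gene the 2 steps were -0.07 and -0.27. In inbred mice Map2 fell by 0.25 at P14 (11.65, 11.70 and 11.67, against 11.97, 11.92 and 11.88 at P0; adjusted p 0.000163).

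Map4, the form found in dividing and non-neuronal cells as well as neurons, had 8.87, 8.77 and 9.07 in mixed A at E14, 9.16, 8.97 and 9.12 at P0, and 8.85, 8.86 and 8.71 at P14. In mixed B it had 8.94, 8.83 and 8.88 at E14, 8.67, 8.80 and 8.61 at P0, and 8.51, 8.55 and 8.52 at P14. It did not pass in the mixed wild types. The change to P0 had opposite signs, 0.18 in mixed A and -0.19 in mixed B (adjusted p 1). The change to P14 was -0.22 ± 0.0915 (adjusted p 0.128), and -0.35 relative to the median gene, where it passed (adjusted p 0.0187). The inbred arrays had 8.61, 8.57 and 8.65 at P14 and 9.03, 9.19 and 9.41 at P0, a difference of -0.60 (adjusted p 3.77e-06).

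Map6, also called STOP, makes microtubules resistant to cold. It had 9.33, 8.75 and 9.48 in mixed A at E14, 9.97, 10.04 and 10.22 at P0, and 8.21, 8.38 and 8.18 at P14. In mixed B it had 9.54, 9.60 and 9.30 at E14, 9.20, 9.55 and 9.57 at P0, and 7.86, 8.05 and 7.83 at P14. The 2 wild types differed at the first step, where mixed A arrays of P0 lay above those of E14 and mixed B arrays overlapped. The change to P0 had opposite signs, 0.89 in mixed A and -0.04 in mixed B (adjusted p 1). Relative to the median gene it was 1.05 and 0.17, and did not pass either (adjusted p 0.367). At P14 Map6 fell by 1.67 ± 0.142 (adjusted p 2.56e-09), or 1.81 relative to the median gene. Inbred arrays had 8.31, 8.27 and 8.14 at P14 and 10.11, 10.38 and 10.21 at P0, a difference of -1.99 (adjusted p 2.07e-11).

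Among the stathmins, Stmn1, the general form that is abundant in dividing precursors and young neurons, was the one that fell at P14 in the mixed wild types on its brightest probe set. It had 13.63, 13.54 and 13.53 in mixed A at E14, 13.33, 13.58 and 13.61 at P0, and 13.19, 13.12 and 13.12 at P14. Mixed B had 13.64, 13.64 and 13.66 at E14, 13.65, 13.57 and 13.61 at P0, and 13.33, 13.39 and 13.30 at P14. Within each wild type the E14 and P0 arrays overlapped and the P14 arrays were lower than both. The change to P14 was -0.32 ± 0.0542 (adjusted p 0.000175), or -0.45 relative to the median gene, and in inbred mice it was -0.48 (12.99, 13.09 and 13.14 at P14, against 13.54, 13.58 and 13.53 at P0; adjusted p 4.86e-08).

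Stmn2, the neuronal SCG10 of growth cones, had 12.78, 12.52 and 12.29 in mixed A at E14, 12.89, 12.92 and 13.01 at P0, and 12.82, 12.71 and 12.73 at P14. Mixed B arrays had 12.79, 12.83 and 12.80 at E14, 13.23, 13.19 and 13.23 at P0, and 13.07, 13.04 and 13.05 at P14. P0 was the highest age in both. The rise to P0 was 0.41 ± 0.0734 (adjusted p 5.5e-05), or 0.60 relative to the median gene. The later difference of -0.17 ± 0.0734 did not pass (adjusted p 0.0662), and passed relative to the median gene (-0.31, adjusted p 0.00503). Inbred arrays fell by 0.42 at P14 (12.48, 12.65 and 12.57, against 12.96, 13.04 and 12.97 at P0; adjusted p 2.34e-05).

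Stmn3, which encodes the neuronal SCLIP, had 12.58, 12.35 and 12.48 in mixed A at E14, 12.72, 12.79 and 12.88 at P0, and 12.89, 12.89 and 12.93 at P14. Mixed B had 12.66, 12.72 and 12.69 at E14, 12.99, 12.88 and 12.90 at P0, and 13.16, 13.09 and 13.14 at P14. Each age lay above the one before, by narrow gaps after P0. It rose by 0.28 ± 0.053 to P0 (adjusted p 0.000745) and differed by 0.16 ± 0.053 at P14 (adjusted p 0.0835), or by 0.47 and 0.03 relative to the median gene. Stmn4, the neuronal RB3, had 11.37, 11.19 and 10.98 in mixed A at E14, 11.88, 11.89 and 11.86 at P0, and 11.98, 11.97 and 11.96 at P14. Mixed B had 11.60, 11.71 and 11.53 at E14, 11.76, 11.99 and 11.998 at P0, and 11.91, 11.92 and 12.04 at P14. The P0 and P14 arrays of mixed B overlapped. Its rise to P0 was 0.50 ± 0.0882 (adjusted p 0.00605) and the difference at P14 was 0.07 ± 0.0882 (adjusted p 0.812), or 0.69 and -0.06 relative to the median gene. In inbred mice neither passed, with 0.08 for Stmn3 (adjusted p 0.161) and -0.16 for Stmn4 (adjusted p 0.115), although Stmn4 passed against the median gene (-0.20, adjusted p 0.0466). In all, 8 of 10 genes passed in inbred mice at P14 against P0, beside 71.7% of all genes (38% higher and 33.8% lower); against the median gene 9 of 10 did, beside 71.2%.

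The other probe sets of the same genes did not always move alike, and the positions that they target in the transcript were not used here. Their changes are given relative to the median gene, and those said to rise or fall passed both as measured and against the median probe set. Map6 gave the widest split. Its probe set 1457316_at, described above, averaged 9.33, 9.92 and 8.14 over the wild-type arrays of E14, P0 and P14, while 1422550_a_at averaged 6.73, 7.33 and 8.90. Between P0 and P14 of the mixed wild types the first fell by 1.81 relative to the median gene and the second rose by 1.501 (adjusted p 9.29e-09 against the median probe set), and in inbred mice the differences were -2.04 and 1.38. Both probe sets therefore passed in opposite directions on the same arrays. Map4 had 2 further probe sets with signal: 1437855_at rose by 1.21 at P0 and by 1.07 at P14, whereas 1416091_at rose by 0.68 at P0 and differed by -0.09 at P14. The remaining 2 Map4 probe sets were below the filter.

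**Figure D2:**
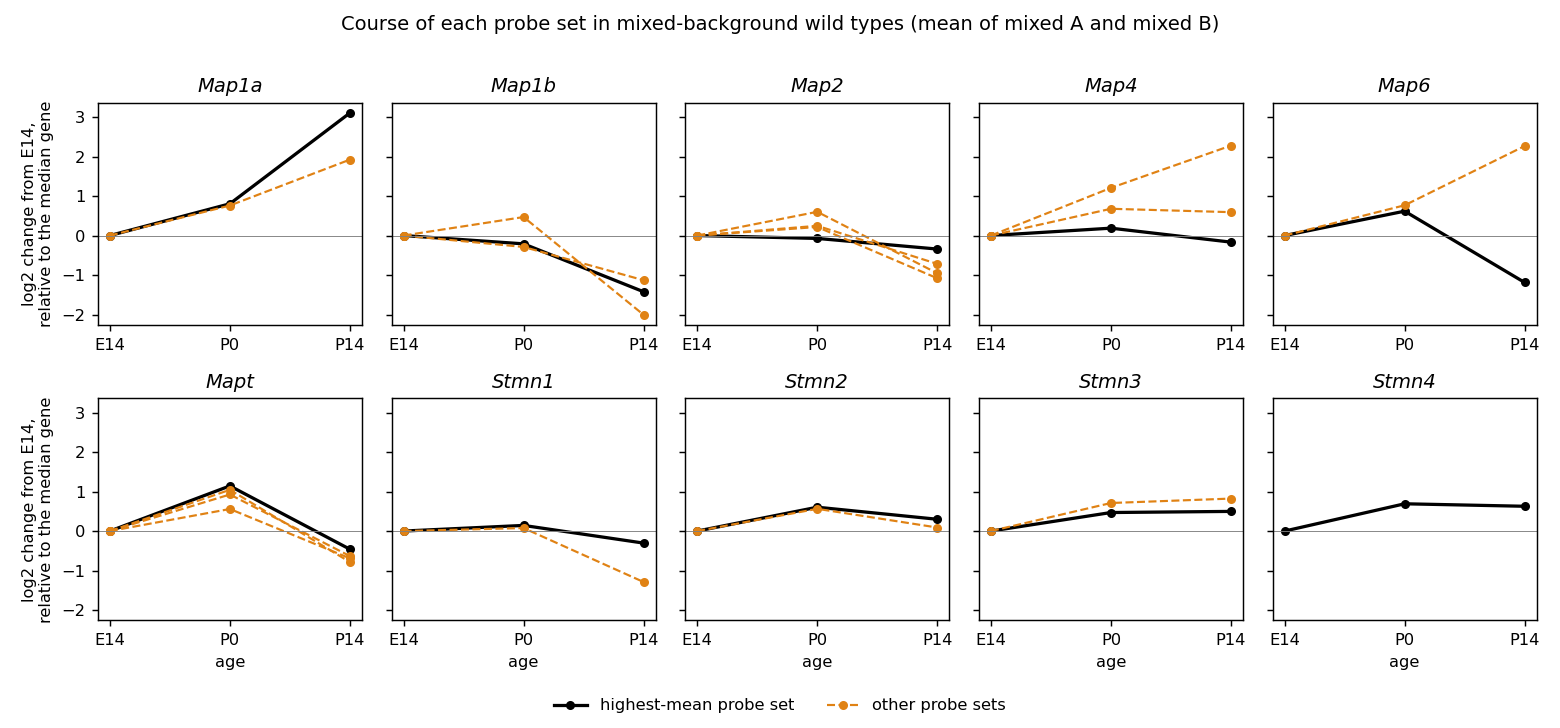
Log2 change from E14, relative to the median gene, of each probe set in the mixed wild types (mean of mixed A and mixed B) at E14, P0 and P14. Black solid lines are the probe sets used for the genes and orange dashed lines the others: those of Map6 part after P0 (1.501 against -1.81 for the one used), those of Map4 part as well, and those of Mapt run together.

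For Map2, the probe sets 1421328_at, 1421327_at and 1440699_at fell at P14, with changes of -0.96, -1.30 and -1.56, while the brightest one differed by -0.27. In inbred mice the first 2 fell, with changes of -1.76 and -2.16, and 1440699_at differed by -0.06. All 4 Mapt probe sets fell at P14, the other 3 with changes of -1.25, -1.83 and -1.56, as did all 3 of Map1b, the other 2 with changes of -0.84 and -2.48. The second Map1a probe set rose by 1.16, that of Stmn1 fell by 1.37, that of Stmn2 fell by 0.47 and that of Stmn3 differed by 0.11. Of the 23417 probe sets tested, 49% passed at P0 against E14, 54.2% at P14 against P0 and 70.7% in inbred mice.

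Next, the mixed wild types were compared with each other. At E14 none of the 10 genes differed between mixed A and mixed B in limma (0.0681% of all genes did). The lowest adjusted p, 0.191, was that of Stmn4 at -0.43. Of the 10 genes, 2 had an unadjusted p under 0.05, beside 1866 of 11743 genes. At P0, 6 of 10 passed, against 28.7% of all genes, and at P14, 9 of 10, against 52.7%. Map1b was the gene that differed most at both ages.

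At P0 mixed A minus mixed B was -0.81 ± 0.143 (SE) for Map1b, with an adjusted p of 0.000184, and 0.64 ± 0.11 for Map6, with an adjusted p of 0.000137. Map4 was higher by 0.39 (adjusted p 0.00459) and Map2 by 0.17 (adjusted p 0.0242), while Stmn2 (-0.28, adjusted p 2.1e-05) and Stmn3 (-0.13, adjusted p 0.0466) were lower. The call for Stmn3 was lost without mixed A 1 or 2 or mixed B 1 or 3, and that for Map2 without mixed A 2 or mixed B 2 or 3. Against the median gene, 0.04 higher in mixed A, 6 of 10 passed as well (27.4% of all genes), with Stmn1 (-0.15, adjusted p 0.0237) in place of Map2 (0.12, adjusted p 0.101). Map1a (0.41), Mapt (0.19), Stmn1 (-0.10) and Stmn4 (-0.04) did not pass.

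At P14 Map1b was lower in mixed A (-1.49 ± 0.162, adjusted p 1.46e-07). Map1a was higher by 0.88 ± 0.101 (adjusted p 2.76e-07) and Mapt by 0.68 (adjusted p 2.34e-08). Stmn1, Stmn2, Stmn3 and Map2 were lower (-0.20, -0.30, -0.23 and -0.14), and Map4 and Map6 were higher by 0.28 and 0.35 (adjusted p 0.00698 and 0.0425). The median gene was itself 0.14 higher in mixed A. Relative to it Map1b was at -1.64, a level of 0.32 times that in mixed B, Map1a at 0.74 and Mapt at 0.54. Tested against the median gene, 7 of 10 passed (48.2% of all genes), and Map4 (0.14, adjusted p 0.177) and Map6 (0.20, adjusted p 0.244) did not. Leaving out mixed A 1, 2 or 3 or mixed B 1 or 3 ended the call of Map6, and leaving out mixed A 2 or 3 or mixed B 1 that of Map2. Stmn4 did not pass as measured (0.01, adjusted p 0.919) or against the median gene (-0.13, adjusted p 0.248).

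**Figure D3:**
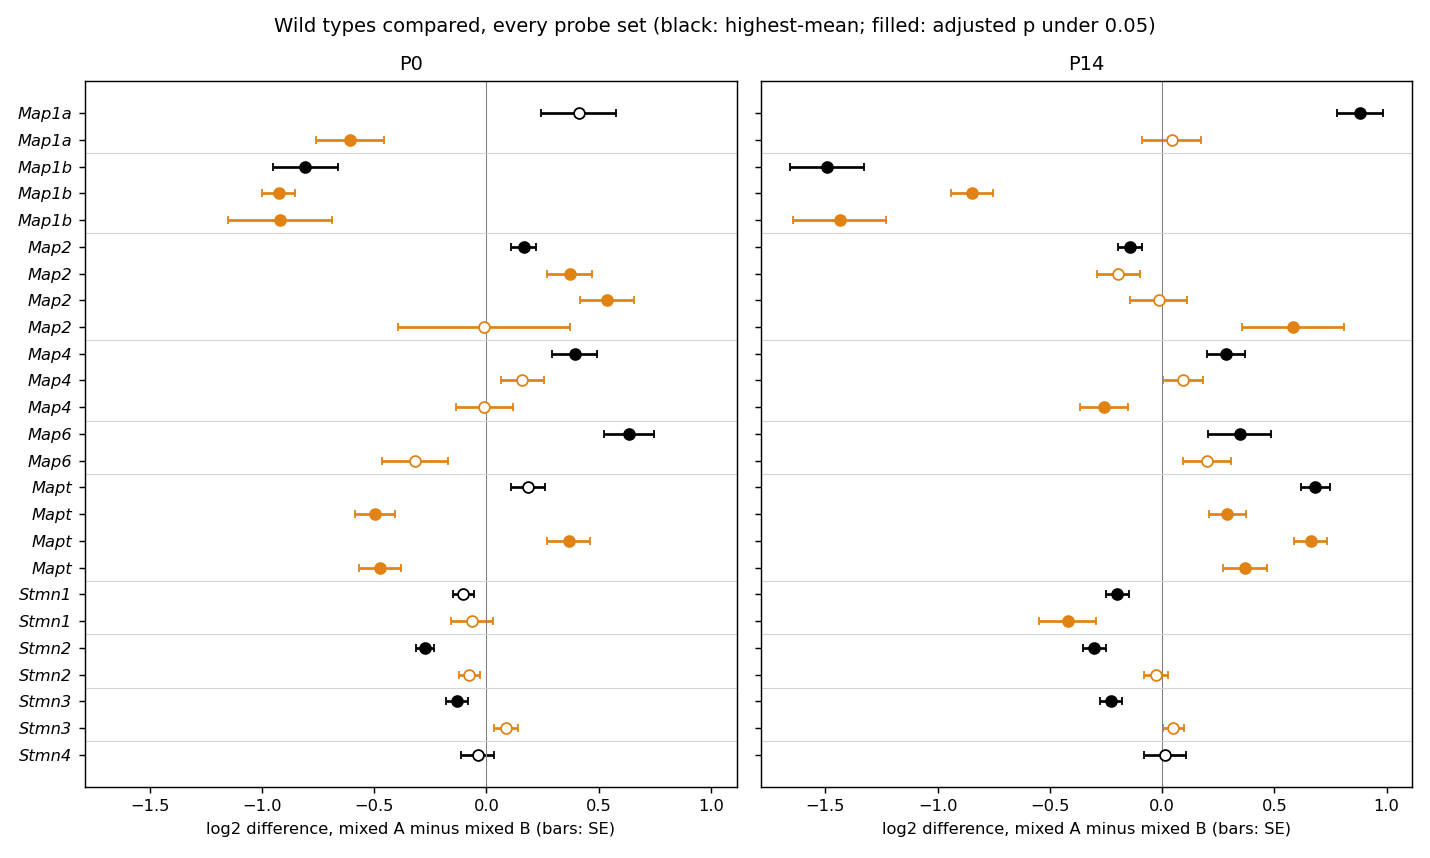
Log2 difference of mixed A minus mixed B, not shifted to the median gene, for every probe set of the 10 genes that reached the filter, at P0 (left) and P14 (right), with SE as bars and filled points where limma's adjusted p was below 0.05. The 3 Map1b probe sets lay below 0 at both ages, and the 4 of Mapt lay on both sides of 0 at P0 and above it at P14.

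All 3 Map1b probe sets were lower in mixed A, with differences of -0.81, -0.93 and -0.92 at P0 and -1.49, -0.85 and -1.44 at P14 without the shift to the median gene. All 4 Mapt probe sets were higher in mixed A at P14, but at P0 the other 3 gave -0.50, 0.37 and -0.47, each past the threshold, so the direction depended on the probe set. The second Map1a probe set was lower in mixed A at P0 (-0.61, adjusted p 0.00348) and differed by 0.04 at P14. Map2 and Map4 each had another probe set called the other way at P14: Map2 1440699_at was higher in mixed A (0.58, adjusted p 0.035) and Map4 1437855_at lower (-0.26, adjusted p 0.0475). The second probe sets of Map6, Stmn2 and Stmn3 did not pass at either age as measured. That of Map6 lay in the other direction at P0 (-0.32), as did that of Stmn3 at P0 (0.09) and P14 (0.05). Those of Map6 at P14 and of Stmn2 at both ages had the direction of the brightest probe set. Of all probe sets tested, 30.2% passed at P0 and 50.6% at P14.

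Across the other groups too, some genes parted with the sides, 3 of 10 at P0 (7.74% of all genes did) and 6 of 10 at P14 (26.2%). At P0 the 18 arrays on the side of mixed A had Map1b at 10.105 to 11.008, and the 12 on the side of mixed B had 11.403 to 11.841, with no overlap. Mapt and Stmn2 were the other genes without overlap there, Mapt at 12.684 to 13.091 against 12.509 to 12.658 and Stmn2 at 12.888 to 13.035 against 13.138 to 13.333. At P14, 6 of 10 genes separated 15 arrays on the side of mixed A from 9 on the side of mixed B: Map1a (10.177 to 10.728 against 9.3197 to 9.8025), Map1b (8.9736 to 10.021 against 10.556 to 11.003), Mapt (11.292 to 11.552 against 10.438 to 10.936), Stmn1, Stmn2 and Stmn3. In the order of group means for Map1a at P14, neighbouring groups overlapped except at the step between Lis1 ko/+ (10.35 ± 0.162, SD, n = 3) and Ndel1 ko/+ (9.67 ± 0.122). The sides were read from all genes of these arrays, so this is a description with no test. The actin 3′ minus 5′ signal, a measure of RNA integrity, moved with the sides at P0 (0.122 to 0.214 with mixed A, against 0.274 to 0.449 with mixed B) and overlapped at P14 (0.497 to 0.956 and 0.627 to 0.717). The mean level of endothelial markers at P0 was 6.726 to 7.164 with mixed A and 6.187 to 6.707 with mixed B, and that of astrocyte markers at P14 was 10.4 to 10.64 and 9.829 to 10.18, both without overlap. Those of oligodendrocyte markers (9.201 to 10.16 and 9.185 to 9.732) and neuronal markers (10.99 to 11.22 and 11.09 to 11.26) overlapped at P14, when 3 of 6 oligodendrocyte markers were higher in mixed A than in mixed B. Their part in these differences was not tested, and background and array processing cannot be told apart.

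**Figure D4:**
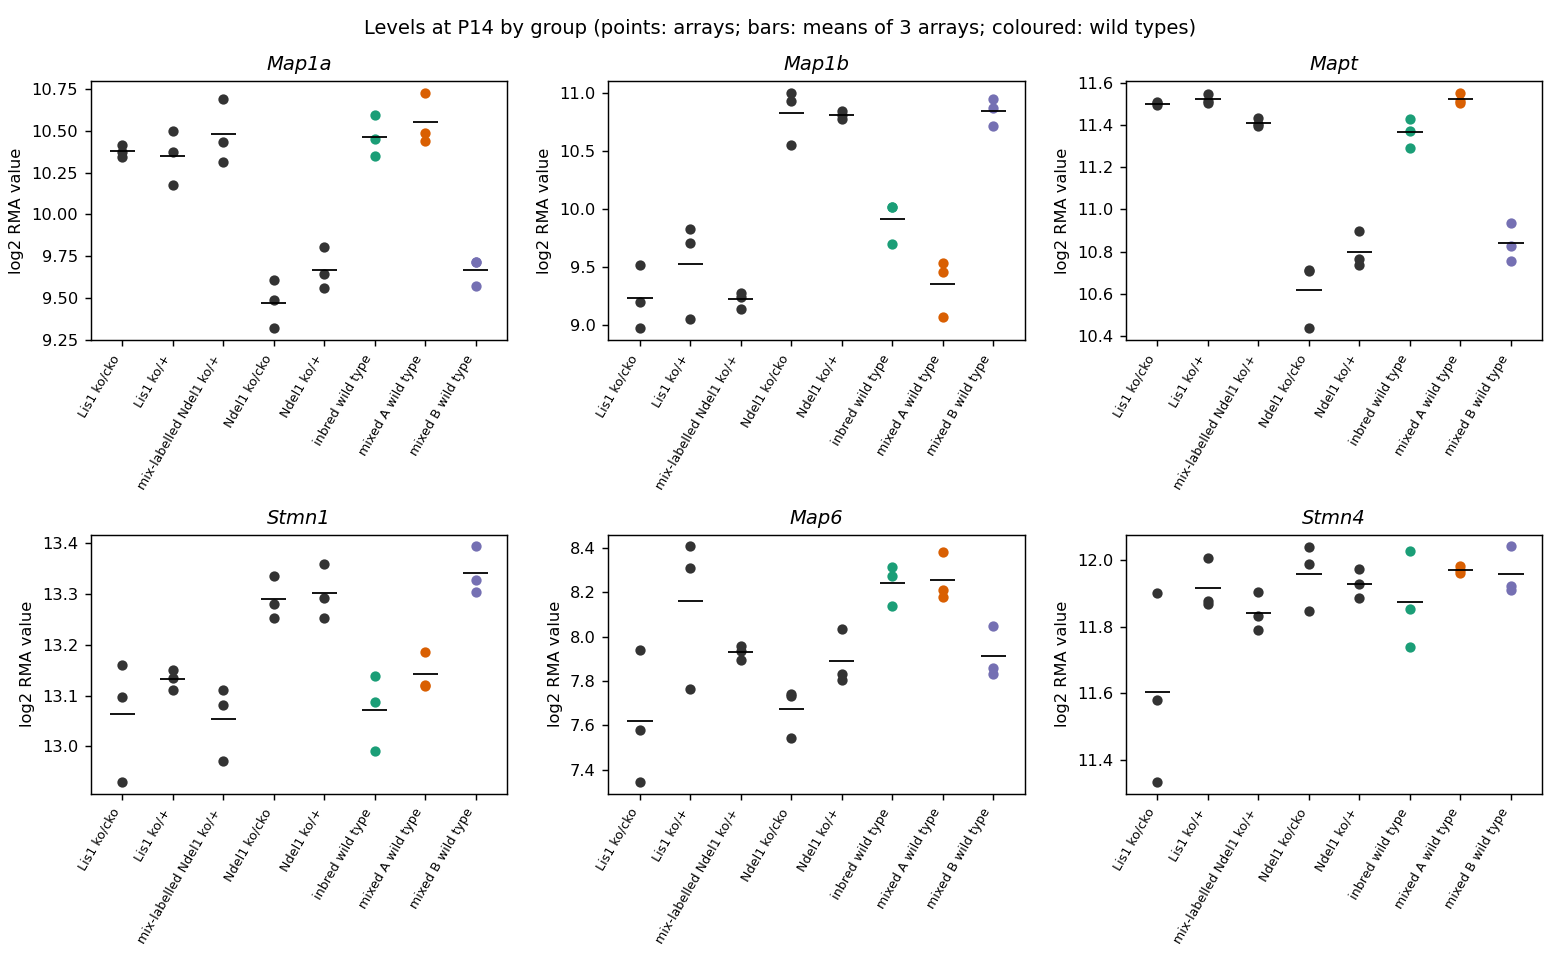
Log2 RMA signal of Map1a, Map1b, Mapt, Stmn1, Map6 and Stmn4 in each P14 array (points) by group, with the mean of 3 arrays as a bar and wild types in colour; vertical axes do not start at 0. Map1b stood at 10.556 or above in mixed B, Ndel1 ko/+ and Ndel1 ko/cko and at 10.021 or below in the other groups.

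The inbred wild type was next set against both mixed ones. None of the 10 genes passed at P0 (1% of all genes did) or at P14 (0.244%). Mapt had the lowest adjusted p at P0 (0.25, adjusted p 0.324) and Stmn2 at P14 (-0.34, adjusted p 0.171). At each age 1 of 10 had an unadjusted p under 0.05, beside 1739 of 11779 genes at P0 and 923 of 12296 at P14. Single probe sets passed: Map1b was lower in inbred mice on 1421851_at at P0 (-0.89, adjusted p 0.00516) and on 1421850_at at P0 (-1.93, adjusted p 0.00262) and P14 (-1.66, adjusted p 0.0327). Map2 1421328_at and 1421327_at were lower in inbred mice at P14, with differences of -0.74 and -0.69 (adjusted p 0.00334 and 0.0118). Of all probe sets, 1.16% passed at P0 and 0.667% at P14.

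At E14, 3 of 10 genes did not overlap between the 6 arrays low in hindbrain and spinal cord markers and the other 18, beside 10.2% of all genes. These arrays also stood apart in neuronal and other markers, as given above, and the part of these in the levels was not tested. Stmn2 was at 12.265 to 12.529 in these arrays and at 12.729 to 13.043 in the other 18. Stmn4 was at 10.88 to 11.194 against 11.261 to 11.722, and Mapt at 11.163 to 11.527 against 11.554 to 12.282. The other 7 genes overlapped. The low arrays include 2 of 3 from mixed A and 2 of 3 from Lis1 ko/cko, so the E14 levels of Stmn2, Stmn4 and Mapt in those groups carry this difference. Without the 6 arrays, the same 5 genes rose from E14 to P0 as with them, Stmn2 by 0.29 without the shift to the median gene (adjusted p 0.039) and Stmn4 by 0.41.

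The mutants were then compared with their wild types. Over 18 mutant groups a single gene passed in a single group: Stmn4 was lower in Lis1 ko/cko brains at P14. At E14 none of the 10 genes passed in limma in Lis1 ko/+ (0% of all genes called), Lis1 ko/cko (0%) or Ndel1 ko/+ (0.0341%). Nor did any in Ndel1 ko/cko (0%), Dcx ko/Y (0.0426%) or 14-3-3 epsilon ko/ko (0%). None had an unadjusted p under 0.05, beside 42, 838, 297, 66, 203 and 65 of 11743 genes in that order of groups. The differences ran from -0.36 to 0.36. Without the 6 arrays low in hindbrain markers, the 1 Lis1 ko/cko array left was lower in Map1b (-1.02, adjusted p 0.0054), a value that rests on that array alone and assumes that it varies like the other groups. For 14-3-3 epsilon ko/ko the count was again 0 of 10 with the library labelled 3, the one with low Ywhae, standing alone. That library had the highest E14 values of Mapt, Stmn4 and Map6 in the series, 12.282, 11.722 and 9.8231.

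At P0 none passed in Lis1 ko/+ (0%), Lis1 ko/cko (0.331%), Ndel1 ko/+ (4.04%), Ndel1 ko/cko (0.84%) or Dcx ko/Y (0.0255%). The count at an unadjusted p under 0.05 was 2, 2, 2, 1 and 0 of 10 in that order of groups. Over all 11779 genes tested it was 183, 1276, 1963, 1047 and 346. Map2 and Mapt were the pair in both Lis1 groups: Map2 differed by 0.23 ± 0.0549 in Lis1 ko/cko (adjusted p 0.274) and by 0.27 in Lis1 ko/+ (adjusted p 1), and Mapt by 0.28 (adjusted p 0.329) and 0.27 (adjusted p 1). Against inbred wild type, none passed in the inbred Ndel1 group (0.255%) or the inbred 14-3-3 epsilon group (0.0255%). At an unadjusted p under 0.05 these gave 0 and 1 of 10, beside 1791 and 1161 of 11779 genes. The 1 gene was Map6 at 0.27 (adjusted p 0.454). Of the other probe sets, Map2 1421328_at and 1421327_at were lower in Ndel1 ko/cko (-0.57, adjusted p 0.0425, and -0.75, adjusted p 0.0325), beside 1.87% of all probe sets, while the brightest Map2 probe set gave 0.06.

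**Figure D5:**
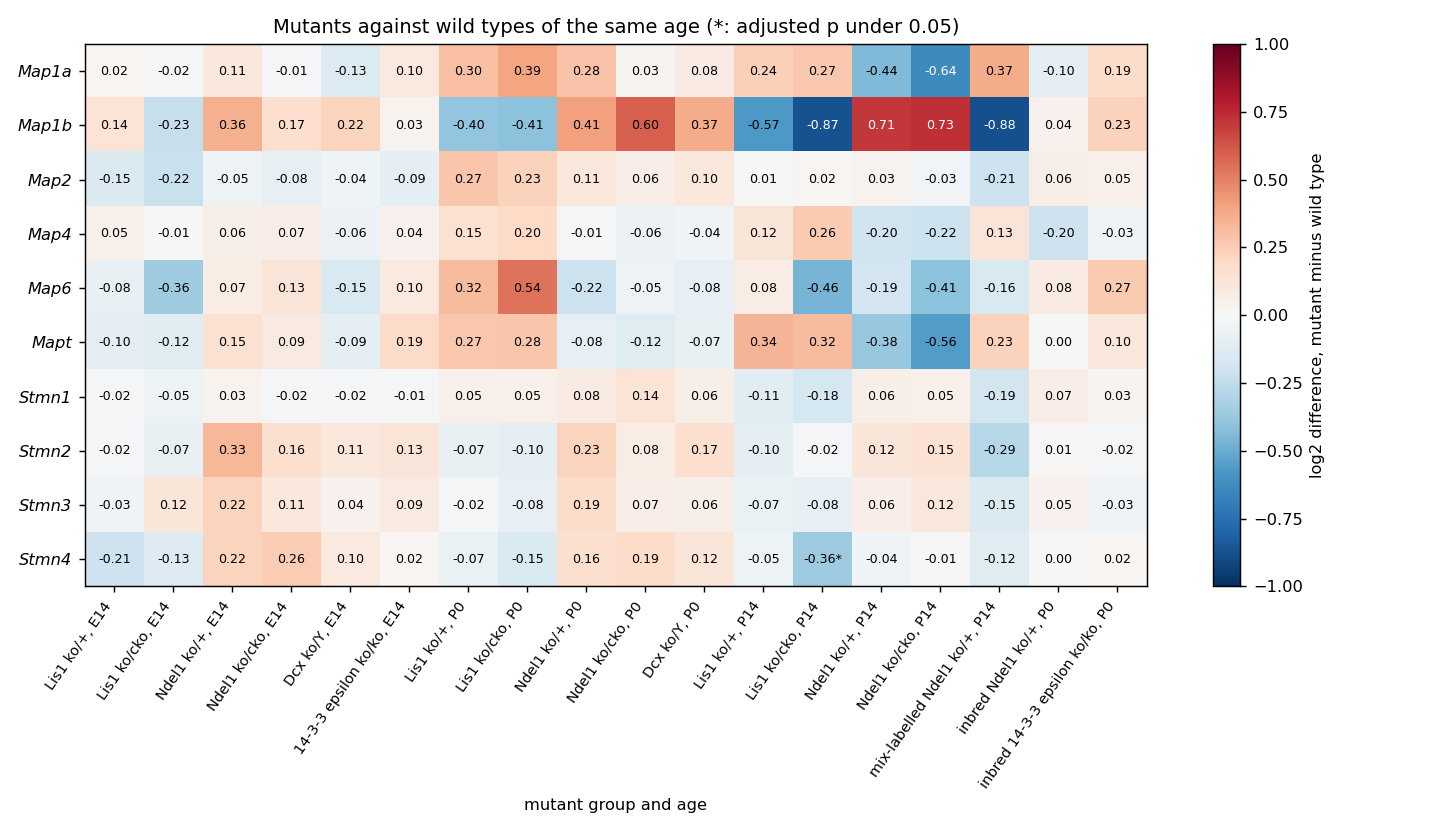
Log2 difference of each mutant group minus wild type for the 10 genes, as colour and number (mean of the differences from mixed A and mixed B, or from the inbred wild type for the last 2 columns). An asterisk marks the single value that passed, Stmn4 in Lis1 ko/cko at P14 (-0.36). The widest values, those of Map1b at P14, did not pass against both mixed wild types. They hold the difference between these wild types, -1.49 for mixed A minus mixed B. Against the mixed wild type of the same side alone, Map1b at P14 differed by -0.13 to 0.18.

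At P14 Stmn4 had 11.58, 11.33 and 11.90 in Lis1 ko/cko brains, against 11.98, 11.97 and 11.96 in mixed A brains and 11.91, 11.92 and 12.04 in mixed B brains. All 3 Lis1 ko/cko arrays lay below all 6 mixed wild-type arrays, replicate 3 by a small margin. The Lis1 ko/cko mean was 11.6 ± 0.285 (SD, n = 3), against mixed A at 11.97 ± 0.01 and mixed B at 11.96 ± 0.0718, and the difference was -0.36 ± 0.0919 (SE, adjusted p 0.0226), beside 6.32% of all genes. The call was lost without Lis1 ko/cko 1 (adjusted p 0.122) or 2 (-0.23, adjusted p 0.237), without mixed A 1, 2 or 3 (0.0515 to 0.0664) or without mixed B 3 (0.0807). Map6 differed by -0.46 (adjusted p 0.258). On other probe sets of Lis1 ko/cko, Map1a 1455779_at was higher by 0.66 (adjusted p 0.00881) and Map2 1421328_at and 1421327_at by 0.41 and 0.53 (adjusted p 0.0473 and 0.0183), beside 6.36% of all probe sets. At P14 none of the 10 genes passed in Lis1 ko/+ (0%), Ndel1 ko/+ (0%) or Ndel1 ko/cko (0.0895%). None did in the group labelled mix Ndel1 ko/+ (0.114%). In that order, 0, 0, 1 and 2 of 10 had an unadjusted p under 0.05, beside 194, 128, 385 and 533 of 12296 genes. Of the cell type markers in Lis1 ko/cko, 2 of 6 progenitor markers were lower and 1 of 6 astrocyte markers higher, and no neuronal or oligodendrocyte marker passed.

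Since each mutant lay on one side of the arrays, it was also set against the mixed wild type of that side alone. Each gene's brightest probe set was used. The sides were read from all genes of these same arrays, so each control was picked for its likeness to the mutant. The p-values do not allow for that choice, which favours small differences. At P0, Lis1 ko/+ and Lis1 ko/cko against mixed A gave 0 of 10 (0% and 2.36% of all genes), as did Ndel1 ko/cko (3.67%) and Dcx ko/Y (0.034%) against mixed B. In Ndel1 ko/+ against mixed B, 1 of 10 passed (9.47%), Map2 at 0.20 ± 0.0549 (adjusted p 0.024). At P14, Lis1 ko/cko against mixed A gave 2 of 10 (13.9%): Map6 at -0.64 ± 0.141 (adjusted p 0.00655) and Stmn4 at -0.37 ± 0.0919 (adjusted p 0.012). The count was 0 of 10 for Lis1 ko/+ (0.00813%) and the group labelled mix Ndel1 ko/+ (0.968%) against mixed A, and for Ndel1 ko/+ (0%) and Ndel1 ko/cko (0.179%) against mixed B.

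The ko/cko genotype was also set against ko/+ of the same gene, which needs no choice of wild type; the same 3 ko/cko arrays enter here and above. For Lis1 at P14, Pafah1b1 itself was not lower in the group labelled ko/cko (10.31 to 10.424) than in that labelled ko/+ (10.149 to 10.323). Map6 had 7.58, 7.34 and 7.94 in ko/cko, against 7.76, 8.41 and 8.31 in ko/+. Replicate 3 of ko/cko overlapped replicate 1 of ko/+. The difference was -0.54 ± 0.141 (adjusted p 0.0232), and Stmn4 differed by -0.31 ± 0.0919 (adjusted p 0.0377), with 12.01, 11.87 and 11.88 in ko/+. Thus 2 of 10 genes passed, beside 8.02% of all genes. Map6 was lost without ko/cko 1 or 2 or ko/+ 2 or 3 (adjusted p 0.0979 to 0.175), and Stmn4 without ko/cko 1 or 2 or ko/+ 1, 2 or 3 (0.0724 to 0.276). The second Map6 probe set differed in the other direction (0.32, adjusted p 0.0564), while Map1a 1455779_at (0.58), Map2 1421328_at (0.34) and 1421327_at (0.44) were higher in ko/cko (adjusted p 0.0106, 0.0268 and 0.0343), beside 9.45% of all probe sets.

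For Ndel1 at P0, where Ndel1 itself was higher in the libraries labelled ko/cko, Stmn2 had 13.14, 13.18 and 13.14 in the group labelled ko/cko, against 13.30, 13.33 and 13.28 in the group labelled ko/+, with mixed B between them at 13.23, 13.19 and 13.23. The difference of -0.15 ± 0.0405 passed (adjusted p 0.0212), 1 of 10 genes beside 9.13% of all genes, and was lost without ko/cko 1 or 3 or ko/+ 1 or 2 (adjusted p 0.0631 to 0.0857). The second Stmn2 probe set differed by -0.13 (adjusted p 0.0745). Map4 1437855_at was lower in the group labelled ko/cko (-0.49, adjusted p 0.0177), beside 7.96% of all probe sets. None of the 10 genes passed for Lis1 at P0 (0.569%) or Ndel1 at P14 (0.309%). At an unadjusted p under 0.05 these gave 0 and 1 of 10, beside 1766 of 11779 and 939 of 12296 genes.

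Whether a change differed between the mixed wild types or between ages was tested on the difference itself, read from each gene's brightest probe set. The changes of Map4 and Map6 from E14 to P0 had opposite signs, up in mixed A and down in mixed B. They differed by 0.37 ± 0.123 (adjusted p 0.0432) and 0.93 ± 0.25 (adjusted p 0.0129), 2 of 10 genes beside 9.4% of all genes. Against the median gene Map4 did not pass (0.33, adjusted p 0.0721). The change of Map2 from P0 to P14 was lower in mixed A than in mixed B, with a difference of -0.31 ± 0.105 (adjusted p 0.0424), 1 of 10 beside 11.9%. The Lis1 ko/cko difference of Map6 at P14 was below that at P0 (-1.01 ± 0.25, adjusted p 0.0425), 1 of 10 beside 2.87%. The second Map6 probe set, which went the other way against ko/+ at P14, was not tested by itself in this way. At P0 Map6 had 10.33, 10.31 and 10.27 in Lis1 ko/cko, against 9.97, 10.04 and 10.22 in mixed A and 9.20, 9.55 and 9.57 in mixed B, all above both wild types. The same test for Ndel1 ko/cko gave 0 of 10 beside 0.046%. At an unadjusted p under 0.05 it gave 0 of 10, beside 623 of 13052 genes. Each of these calls was lost when single arrays were left out: that of Map4 in 9 cases (adjusted p 0.0536 to 0.139), that of Map2 in 10 (0.0595 to 0.123), that of Map6 in Lis1 in 11 (0.0572 to 0.197), and that of Map6 between the mixed wild types without E14 mixed A 2 (0.71, adjusted p 0.0753) or P0 mixed B 1 (adjusted p 0.0507). Without the 6 E14 arrays low in hindbrain markers, Map4 did not pass (0.41, adjusted p 0.0882), Map6 did (0.79, adjusted p 0.0228), and Map1b (-1.001, adjusted p 0.0184), Map2 (0.36, adjusted p 0.0269) and Mapt (0.43, adjusted p 0.0327) passed as well, with 1 array of mixed A left at E14.

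Age accounted for most of the variance over the 78 arrays in 8 of the 10 genes, from 59.3% in Stmn3 to 94.1% in Map1a. The exceptions were Map4 and Stmn2, where the groups within an age held 43.3% and 41.1% and age 40.6% and 38.5%. Over the 26 group means, Map1a ran against Stmn1 (Pearson r = -0.931) and Map1b (r = -0.901). After each age's mean was removed, Map1a followed Mapt (r = 0.91) and Stmn2 followed Stmn3 (r = 0.88), while Map1b ran against Map4 (r = -0.861), Mapt (r = -0.847) and Map1a (r = -0.838). These values describe 26 groups that share ages, array sides and normalization.

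Among 13051 other genes, those with the most similar group means were Sox10 (r = 0.995) and Snph (0.995) for Map1a and Cbll1 (0.985) for Map1b. For Map6 they were Adgrl2 (0.982) and Tnc (0.979), for Mapt Fasn (0.978) and for Stmn1 Cracd (0.987) and Cd24a (0.983). Map4 was closest to Zfp316 (0.954), Stmn3 to Ids (0.948), Stmn4 to Nwd2 (0.94), Stmn2 to Grik1 (0.913) and Map2 to Prpf39 (0.906). Map2 and Stmn2 thus had the lowest likeness to their closest gene among the 10.

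The wider microtubule machinery was counted from lists of genes chosen by name. Of 15 other microtubule-binding proteins, 5 rose and 3 fell at P0 and 7 rose and 5 fell at P14 in the mixed wild types, with a median relative change of 0.50 and 0.17. All counts of this kind stand beside 14.8% of all genes higher and 35% lower at P0, and 34.3% higher and 22.1% lower at P14. Relative to the median gene, Tppp, a tubulin-polymerising protein of oligodendrocytes, rose by 4.20 at P14 and Map6d1, a small relative of Map6, by 3.14, while Dcx, the doublecortin of migrating neurons, fell by 3.54. Of 17 kinases and phosphatase subunits that act on tau and its relatives, 2 rose and 3 fell at P0 and 5 rose and 4 fell at P14. Relative to the median gene, Cdk5r2, the p39 activator of Cdk5, rose by 1.96 at P14, and Gsk3b fell by 0.54 at P0.

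Of 19 plus-end and minus-end proteins, 2 rose and 4 fell at P0 and 4 rose and 5 fell at P14; Mapre3, the neuronal end-binding EB3, rose at both steps, by 0.85 and 0.70 relative to the median gene. Of 6 severing enzymes, none rose and 4 fell at each step, with a median relative change of -0.60 and -0.87; against the median gene 3 and 4 did. Fignl1 fell by 2.33 at P0 and by 1.28 at P14, Katna1, the katanin catalytic subunit, had changes of -1.29 and -0.76, and Fign fell too, with changes of -1.08 and -2.26, each relative to the median gene. Spast, the spastin gene, was at -0.31 as measured at P0 (adjusted p 0.0029) and at -0.12 relative to the median gene, which did not pass (adjusted p 0.225), and it fell by 0.97 at P14. In inbred mice 5 of the 6 fell at P14, beside 33.8% of all genes. In Lis1 ko/cko at P14, 2 of 14 other microtubule-binding genes and 1 of 19 plus-end and minus-end proteins were lower. Of the kinases and phosphatase subunits 2 of 17 were higher, and 0 of 4 severing enzymes passed. These stand beside 6.32% of all genes called in either direction. Against the median gene the first 3 counts were 2, 0 and 3.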

How the data were processed

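Brain total RNA was hybridised to one-colour Affymetrix arrays. The authors deposited log2 values for 45101 probe sets on 78 arrays; RMA is named, with no version, in the submitters' processing notes, and the values look normalized within each age. Of the probe sets, 34945 carry 1 gene symbol, 932 several, 9160 are unnamed here and 64 are array controls. The array annotation gave 18193 genes, 18031 of them matched to RefSeq by gene ID, each read from its probe set with the highest mean. Genes whose group means all stayed under 5.2531 were not tested, which left 11743 genes at E14, 11779 at P0 and 12296 at P14, 12864 over the wild types and 13052 over all arrays.

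Differences were fitted with limma 3.58.1 in R 4.3.3 (lmFit, eBayes with a trend), one fit per age, one over the 24 wild-type arrays for ages, and one over all 78 arrays for differences between differences. Benjamini-Hochberg adjustment ran over all genes tested, and an adjusted p under 0.05 was a call. Against both mixed wild types, the larger p of the differences counted where both had one sign and a p of 1 otherwise; the difference is their mean and its SE the larger. Labels gave the groups, and the spread between 3 arrays sets the precision; array values carry no read depth. Named genes are the 10 genes, all their probe sets, the genes of closest group means and up to 4 genes per further list with the largest called changes. The genes, lists and tests were chosen with earlier results of these data known. Alternatives covered the filter, the probe set rule, quantile normalization, a joint fit, a replicate block, either mixed wild type alone, their mean, and each array left out; leaving out the 6 E14 arrays low in hindbrain markers, and the E14 14-3-3 epsilon ko/ko arrays 1 and 2, and testing against the median difference of the genes tested, taken as fixed, were added after seeing the data. The fits were tested on simulated data.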

Additional observations from a re-analysis of the deposited data

Results flagged for a closer look

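The change of Map4 from E14 to P0 differed between the wild types, with mixed A minus mixed B at 0.3714 ± 0.123 (SE, limma, adjusted p 0.0432), and that of Map6 at 0.9282 ± 0.25 (adjusted p 0.0129). The change of Map2 from P0 to P14 differed by -0.31 ± 0.105 (adjusted p 0.0424). The Map6 difference of Lis1 ko/cko from wild type was lower at P14 than at P0, by -0.86 against mixed A and by -1.15 against mixed B, a mean of -1.007 ± 0.25 (adjusted p 0.0425). Each of these is a test of the difference between 2 changes, and each lost its call without single arrays named or counted above. Each was read from the gene's brightest probe set, and the other probe sets were not tested by themselves in this way. With 3 arrays in a group, no single array was tested as an outlier.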

How the results depend on the processing

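Counts here are how many of the 10 genes passed in limma. They stand without the share of all genes under each setting. They describe how calls depend on the processing and are no result about the list. Single arrays left out one at a time gave 4 to 6 genes for P0 against E14, 5 to 6 for P14 against P0, 8 to 9 in inbred mice, and 4 to 7 at P0 and 7 to 9 at P14 for mixed A against mixed B. They gave 0 to 2 for Lis1 ko/cko at P14, for Lis1 ko/cko against ko/+ at P14, for the Lis1 ko/cko difference at P14 minus P0 and for the P0 to P14 change in mixed A minus mixed B, 0 to 3 for the E14 to P0 change in mixed A minus mixed B, 0 to 1 for Ndel1 ko/cko against ko/+ at P0, and 0 for every other comparison. The changes between mixed wild types (E14 to P0, then P0 to P14) and the Lis1 ko/cko difference between ages gave 1, 0 and 0 without a filter and 1, 2 and 0 with the mean of a gene's probe sets. That mean also gave 8 for P14 against P0, 2 for mixed A against mixed B at P0, 1 for inbred at P0 and 2 for Lis1 ko/cko at P14, and it turned Map4 to 0.193 for P0 against E14, 0.308 for P14 against P0 and 0.3923 in inbred mice, and Map2 in mixed A against mixed B at P14 to 0.05767; the probe sets differ by construction. Quantile normalization gave 8 for P14 against P0 and 2 for Ndel1 ko/cko against ko/+ at P0. One fit of all 78 arrays gave 1 for mixed A against mixed B at E14, 1 for Lis1 ko/cko against ko/+ at P14 and 0 for Ndel1 ko/cko against ko/+ at P0. Testing against the median gene gave 2 for Ndel1 ko/cko against ko/+ at P0 (Stmn3 joined Stmn2), and 1 and 2 for the E14 to P0 and P0 to P14 changes in mixed A minus mixed B. The stricter filter of 7.627 moved no count beyond 1.5 times.

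Same-numbered arrays of different groups correlated at -0.0348, -0.00571 and 0.0144 on average at E14, P0 and P14. Single pairs ran from -0.807 to 0.744, -0.438 to 0.462 and -0.322 to 0.373, and an average cannot tell whether some replicates were paired. The replicate block gave 2 for P0 against E14, 1 for the E14 to P0 change in mixed A minus mixed B and 0 for the Lis1 ko/cko difference between ages. Against mixed A alone, the counts were 8 for P0 against E14 and 8 for P14 against P0, 1 for inbred at P14, 6 for Ndel1 ko/+, 7 for Ndel1 ko/cko and 3 for Dcx ko/Y at P0, 2 for Lis1 ko/cko, 8 for Ndel1 ko/+ and 8 for Ndel1 ko/cko at P14, and 2 for the Ndel1 ko/cko difference between ages. Against mixed B alone, they were 6 for inbred at P0 and 7 at P14, 7 for Lis1 ko/+, 8 for Lis1 ko/cko and 1 for Ndel1 ko/+ at P0, 7 for Lis1 ko/+, 8 for Lis1 ko/cko and 8 for mix-labelled Ndel1 ko/+ at P14, and 4 for the Lis1 ko/cko difference between ages. Against the mean of both, they were 8 for P0 against E14, 9 for P14 against P0, 6 for inbred at P0 and 5 at P14, 2 for Lis1 ko/+, 5 for Lis1 ko/cko, 4 for Ndel1 ko/+, 3 for Ndel1 ko/cko and 1 for Dcx ko/Y at P0, 3 for Lis1 ko/+, 7 for Lis1 ko/cko, 4 for Ndel1 ko/+, 7 for Ndel1 ko/cko and 7 for mix-labelled Ndel1 ko/+ at P14, and 2 and 1 for the Lis1 and Ndel1 ko/cko differences between ages. Without the 6 E14 arrays low in hindbrain markers, 1 gene passed in Lis1 ko/cko at E14 and 4 in the E14 to P0 change in mixed A minus mixed B. Mixed A against mixed B itself gave 6 of 10 genes at P0 (28.7% of all genes) and 9 of 10 at P14 (52.7%). A count against the mixed wild type of the other side, or against the mean of both, also holds that difference. The cause of these shifts in count was not tested.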
